A study of Homo sapiens with 4 samples.

Results

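The alpha-arrestins TXNIP, ARRDC1, ARRDC2, ARRDC3 and ARRDC4 and the glucose-sensing transcription factors MondoA (gene MLXIP), ChREBP (gene MLXIPL) and their partner MLX were followed in A375 cells, an established human melanoma line. These 8 genes were chosen by name out of the 56832 genes of the deposited table. RNA was sequenced from cells given 1 mM octanoate, a medium-chain fatty acid, for 48 h and from cells given only the solvent, isopropanol, for the same time. Both groups were wild type, grew in DMEM with 10% serum and gave 2 libraries each. The purpose stated with the data was to find genes and gene signatures that rise under octanoate. Since 1 cell line was used, the values describe that line only, and the labels do not say whether the libraries of a group came from separate cultures. The p-values then rest only on spread between these libraries, which may be technical. In the limma fit, the variance used for each gene was mostly borrowed from other genes of similar level (prior of 21.2 degrees of freedom).

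MondoA and ChREBP are basic helix-loop-helix leucine zipper proteins that bind DNA as dimers with MLX. When glucose 6-phosphate rises they act in the nucleus at carbohydrate response elements, which are made of a pair of E-box-like half-sites 5 bases apart. TXNIP and ARRDC4 are among the best known MondoA targets. Alpha-arrestins are adaptors that bring NEDD4 family ubiquitin ligases to membrane proteins, and TXNIP also binds thioredoxin and lowers glucose uptake by drawing the transporter GLUT1 (gene SLC2A1) into the cell.

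Recovered whole reads came to between 67785956 and 78005035 per library, and replicates differed by more than sampling noise (chi-square per degree of freedom 4.77 in vehicle and 6.50 in octanoate). The label of the line was checked against 12 melanoma and melanocyte markers. SOX10, MCAM, CSPG4, S100B and MITF had means over 1000 normalised counts, whereas the 5 pigment cell markers PMEL, MLANA, TYR, TYRP1 and DCT stayed below 100. Of the 12, 3 were called higher under octanoate (CSPG4, MCAM and PMEL) and 2 lower (S100B and MITF). The log2 difference was -1.12 for S100B, -0.48 for MITF and 0.42 for CSPG4. Of 12 markers of other cell types, 10 had means below 100, among them PTPRC, EPCAM and COL1A2, and none was at 0 in all libraries. Together they came to 1365 and 1199 normalised counts with vehicle and 620 and 566 with octanoate. KRT14, a keratin of basal epithelium, led this sum and went from 1110 and 942 to 266 and 218. Of these markers 2 were called higher and 2 lower, and the endothelial marker PECAM1 rose from 121 and 122 to 249 and 221. The part of these markers in the results was not tested.

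Octanoate split the alpha-arrestins. ARRDC3 and ARRDC2 rose, TXNIP and ARRDC4 fell, and ARRDC1 did not pass the test. Of the glucose sensors, MLXIP fell by a small amount, while MLXIPL and MLX did not pass the test. In all, 5 of the 8 genes had a limma adjusted p under 0.05, 2 of them higher and 3 lower. Across the 20250 genes tested, 29.9% passed, with 16.2% higher and 13.7% lower under octanoate. At means of 100 to 1000, where 2 of the 8 genes lie, 38.6% passed. At 1000 to 10000, where 5 of them lie, it was 37.9%. The libraries of both groups did not overlap for 7 of the 8 genes, where 63.1% of all tested genes show the same. All 8 genes had means above the minimum of 10 normalised counts, so none was left out. In bulk RNA, fewer cells that express a gene and less RNA per cell cannot be told apart.

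**Figure D1:**
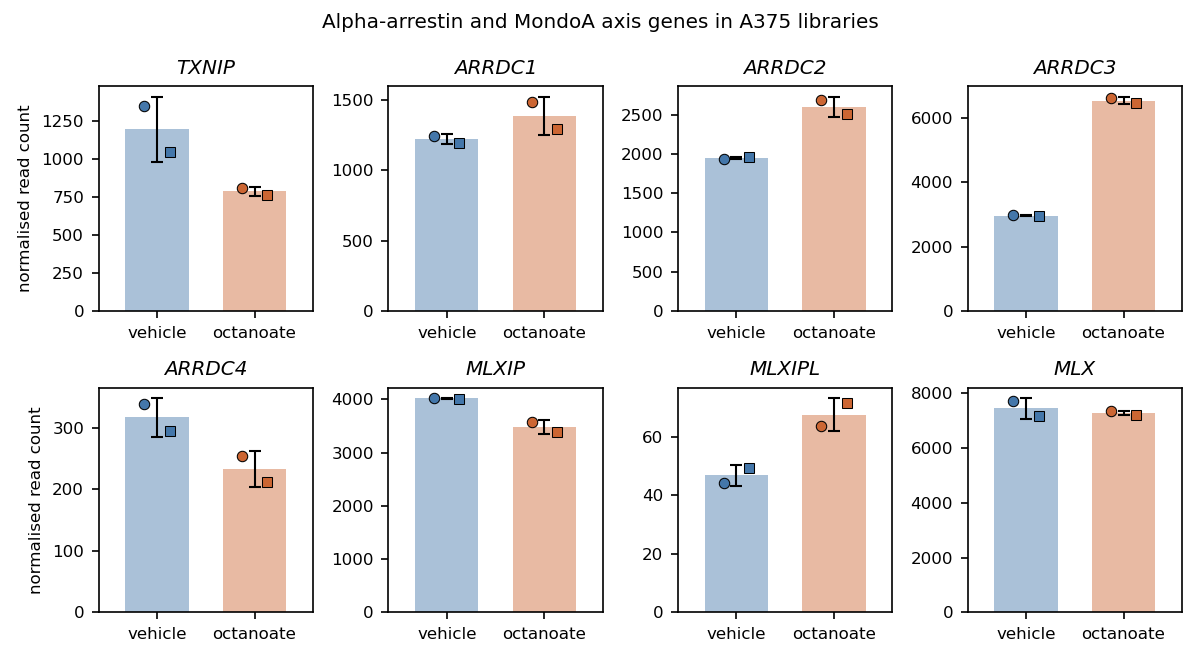
Normalised read counts (vertical axes, from 0) of the 8 genes in vehicle (blue) and octanoate (orange) libraries. Bars are means, error bars are SD over 2 libraries, circles are replicate 1 and squares replicate 2. ARRDC3 rises from about 2962 to 6545, TXNIP falls from 1196 to 786, and the groups overlap only for MLX.

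Among the sensors, MLXIP encodes MondoA, the form found in most tissues. Its normalised count was 4018 and 4011 with vehicle and 3569 and 3382 with octanoate. Both octanoate libraries lay below both vehicle libraries, and the vehicle pair was nearly equal. The log2 difference was -0.21 (SE 0.06, limma adjusted p 0.0106). The call did not hold without some libraries: the log2 difference was -0.21 without vehicle 1 or without vehicle 2, and -0.17 without octanoate 2. In such fits the lone library of a group adds nothing to the variance, which was mostly borrowed from other genes. It was borrowed wholly when an octanoate library was left out (infinite prior degrees of freedom).

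MLXIPL encodes ChREBP, the paralogue best known from liver and fat. It had few reads, 45 and 51 in vehicle and 66 reads in each octanoate library. As normalised counts these were 44.2 and 49.4 against 63.5 and 71.5. The groups did not overlap, but the log2 difference of 0.52 had an SE of 0.22 and a 95% interval from 0.06 to 0.98 before adjustment, and the limma adjusted p was 0.0811.

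MLX, the shared dimer partner, had 7701 and 7172 normalised counts in vehicle and 7328 and 7209 in octanoate. The octanoate values lay within the vehicle range, and the log2 difference was -0.03 (95% interval -0.15 to 0.09, limma adjusted p 0.729). In GENCODE 29 the exons of MLX share 770 bases with PSMC3IP on the opposite strand, and the strand setting of the counting is not given in the sources used here, so reads of both genes may be mixed. Within each library the log2 ratio of MLXIP to MLX was -0.94 and -0.84 in vehicle and -1.04 and -1.09 in octanoate. The ratio was lower in both octanoate libraries. No test was run on this ratio (the smallest two-sided p of an exact permutation test is 0.333 here).

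TXNIP, which lies on chromosome 1 at 145992435 to 145996600 (minus strand, GRCh38), had the largest fall of the 8 genes. Its normalised count was 1348 in vehicle 1, 1044 in vehicle 2, 807 in octanoate 1 and 766 in octanoate 2. The octanoate libraries were the lower pair and close together. Vehicle 1 stood above vehicle 2 by more than vehicle 2 stood above octanoate 1. The mean was 1196 ± 214 for vehicle and 786 ± 28.6 for octanoate (SD, n = 2 each). On the log2 scale this was -0.59 (limma adjusted p 2.99e-05, SE 0.09), or 1.52-fold lower. The size of the fall depended on which vehicle library was used: it was -0.41 without vehicle 1 and -0.78 without vehicle 2.

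ARRDC4, on chromosome 15 at 97960698 to 97973838 (plus strand), is the closest companion of TXNIP as a MondoA target and also acts on GLUT1. It had 339 and 295 normalised counts in vehicle and 254 and 212 in octanoate. All octanoate values were below all vehicle values, though the gap between the groups was no larger than the gap within each. The log2 difference was -0.44 (SE 0.12, limma adjusted p 0.00835). The call was lost without vehicle 1 (-0.34, limma adjusted p 0.129) and without octanoate 2 (-0.31, limma adjusted p 0.116). In the authors' deposited table its adjusted p was 0.0780, above the threshold. That table called 4 of the 8 genes, and ARRDC4 was the only one of the 8 whose call differed from the limma call. Of the 33533 genes with an adjusted p in that table, 12.9% were called. They outnumber the 20250 genes tested here, so they include genes with means under the minimum for testing. All 8 genes had means above it, so the 12.9% is not a matched background for them. Nor can it be compared with the 29.9% of the limma fit. The log2 ratio of TXNIP to ARRDC4 within a library was 1.99 and 1.83 in vehicle and 1.67 and 1.85 in octanoate. These ranges overlap.

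The promoters of TXNIP and ARRDC4 are shown with that of ARRDC3 because the first pair fell and the third rose. RefSeq windows (GRCh38.p14) were found for all 8 genes, 11 windows in all since some genes have more than 1 start. The stretch from 250 to 50 bases before the start is given, 5′ to 3′ on the gene's strand. No GENCODE 29 exon lies in these 3 stretches. Positions count back from the RefSeq start, with -1 the base just before it. Capitals mark E-box-like CACGNG matches on either strand, where a match on the opposite strand reads CNCGTG.
TXNIP: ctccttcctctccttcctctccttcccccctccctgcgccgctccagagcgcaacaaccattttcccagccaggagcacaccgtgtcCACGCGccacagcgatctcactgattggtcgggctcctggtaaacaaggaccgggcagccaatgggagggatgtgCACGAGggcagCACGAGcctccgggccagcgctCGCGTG
ARRDC4: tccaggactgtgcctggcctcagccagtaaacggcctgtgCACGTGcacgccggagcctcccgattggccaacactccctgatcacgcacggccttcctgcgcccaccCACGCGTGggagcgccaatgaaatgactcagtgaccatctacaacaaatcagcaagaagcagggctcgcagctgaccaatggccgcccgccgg
ARRDC3: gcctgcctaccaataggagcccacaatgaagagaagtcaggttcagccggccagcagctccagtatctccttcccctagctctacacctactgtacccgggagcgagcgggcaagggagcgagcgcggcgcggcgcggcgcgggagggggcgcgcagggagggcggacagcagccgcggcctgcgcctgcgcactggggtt
These lie at chr1:145996629-145996829 (minus strand), chr15:97960453-97960653 (plus strand) and chr5:91383367-91383567 (minus strand).

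The TXNIP window holds a tandem of CACGNG half-sites with 5 bases of any kind between them, searched on both strands. The match, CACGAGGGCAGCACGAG, spans positions -88 to -72. This tandem was found in 20 of 35116 windows (0.0570%), and in none of the other 10 windows of these genes. A looser tandem, in which the second half-site reads CNCGNG and which includes the first, was found in 0.501% of all windows and again only in TXNIP here. ARRDC4 holds the palindromic E-box CACGTG, itself a CACGNG match, at -210 to -205, and a pair of overlapping CACGNG matches, on opposite strands, between -142 and -135. CACGTG occurs in 7.26% of all windows. MLX holds it as well, at -50 to -45, and the other 6 genes do not. CACGNG occurs in 30.5% of all windows. It is absent from the printed ARRDC3 window and occurs once in the window of the second ARRDC3 start. ARRDC2, which rose too, has CACGNG matches that begin at -49, -22 and -13. A match of letters does not show binding, and its absence from this window says nothing about the factor.

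The first tandem was then looked at across the table. The 20 windows belong to 20 genes, of which 16 were tested. One of these 16 fell, which was TXNIP, and 3 rose: GFPT1, the first enzyme of the hexosamine pathway (log2 difference 0.49, limma adjusted p 4.61e-07), PPP2R3C, a phosphatase subunit gene (0.40, limma adjusted p 0.000332), and HPF1, listed as C4orf27 (0.19, limma adjusted p 0.0342). The share that passed was 25.0%, against 29.9% of all tested genes, and the median log2 difference of the 16 was 0.05. None of the other tested genes with this tandem was called lower. Of 120 tested genes with the looser tandem, 23 were called higher and 26 lower (40.8% called), with a median of -0.06. The share of all tested genes that passed rose with level. It was 13.1% at means of 10 to 100, 38.6% at 100 to 1000 and 37.9% at 1000 to 10000. The genes named here were chosen after their values were seen.

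ARRDC3 had the largest change of the 8 genes. It lies on chromosome 5 at 91368724 to 91383359 (minus strand) and encodes an adaptor known for driving the breakdown of integrin beta4. The normalised count was 2976 and 2947 in vehicle and 6629 and 6461 in octanoate. The replicates lay close together in both groups, and the gap between the groups exceeded the spread within them many times over. The rise was 2.21-fold, a log2 difference of 1.14 (SE 0.06, 95% interval 1.02 to 1.26 before adjustment, limma adjusted p 2.09e-13). Of all tested genes, 2.67% were called higher with a change of at least 2-fold. The log2 difference stayed between 1.13 and 1.16 in all 16 alternatives tried, and the call held in each of them. They include the fit with trends in GC content and length taken out, which covers too few genes to serve as a check. ARRDC3 shares 145 exon bases with ARRDC3-AS1 on the opposite strand.

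ARRDC2, on chromosome 19 at 18001132 to 18014102 (plus strand), also recruits NEDD4 family ligases. It had 1934 and 1958 normalised counts in vehicle and 2688 and 2503 in octanoate, so that both octanoate libraries were well above both vehicle libraries. The log2 difference was 0.41 (SE 0.07, limma adjusted p 2.79e-05), or 1.33-fold. Its exons share 442 bases with the opposite-strand transcript AC020904.3.

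ARRDC1, known for loading the ESCRT protein TSG101 into vesicles that bud from the plasma membrane, went the same way with a smaller difference. Its counts were 1246 and 1196 in vehicle and 1483 and 1292 in octanoate. The groups did not overlap, but the octanoate libraries differed from each other by more than octanoate 2 differed from vehicle 1. The log2 difference of 0.18 (SE 0.08, limma adjusted p 0.0797) did not pass the test. It rested on octanoate 1: without octanoate 2 it was 0.28 (limma adjusted p 0.0203), and without octanoate 1 it was 0.08 (limma adjusted p 0.605). It also passed with the replicate number as a block (limma adjusted p 0.00888). ARRDC1 shares 183 exon bases with AL590627.2 on the same strand.

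**Figure D2:**
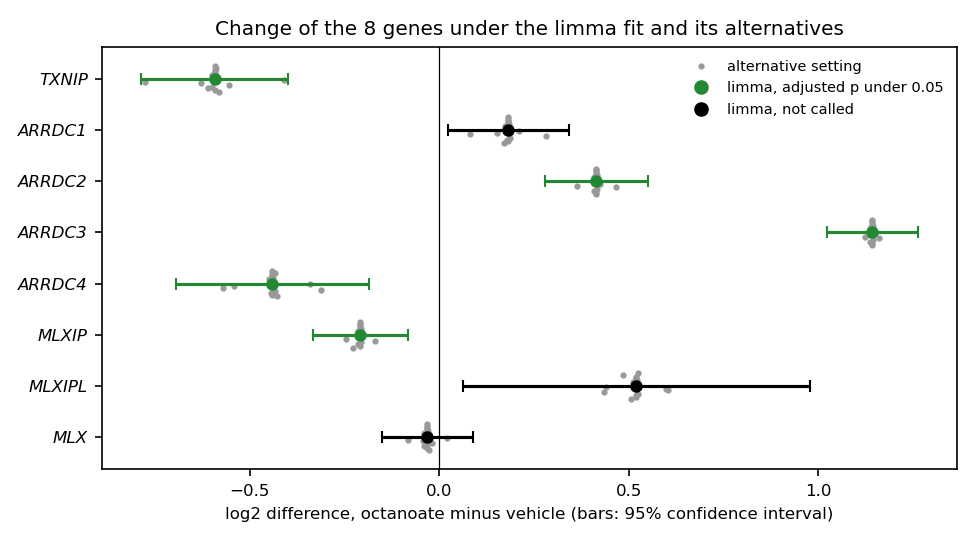
Log2 difference between octanoate and vehicle (horizontal axis) for each of the 8 genes, as the limma estimate with its unadjusted 95% interval, green where the adjusted p was under 0.05. Grey points are the estimates under the 16 alternatives, including the fit that covers too few genes to serve as a check. ARRDC3 stands apart at 1.14, and only MLX has an alternative on the other side of 0, at 0.02.

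These calls depend on how the variance was modelled. With a variance prior that ignores the mean level (no intensity trend), ARRDC3 was the only one of the 8 genes called (limma adjusted p 0.0175), and TXNIP had a limma adjusted p of 0.106. With no filter on low counts, ARRDC3 and ARRDC2 were called and TXNIP had a limma adjusted p of 0.0614.

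Levels of different genes were compared only per length, as RPKM, the recovered reads scaled to GENCODE 29 exon length and to the library total. MLX was the most abundant, with 23.6 ± 0.469 for vehicle and 23.0 ± 0.0890 for octanoate (SD, n = 2 each). In vehicle it was followed by ARRDC3 (8.12 ± 0.191), ARRDC2 (5.68 ± 0.223), TXNIP (4.45 ± 0.665), ARRDC1 (4.32 ± 0.00623) and MLXIP (3.91 ± 0.114). The TXNIP libraries, at 4.92 and 3.98, enclosed both ARRDC1 libraries and overlapped those of MLXIP, so this part of the order was not resolved. ARRDC4 came at 1.05 ± 0.0717 and MLXIPL last at 0.132 ± 0.0144. Under octanoate ARRDC3 reached 17.9 ± 0.0481 and ARRDC2 7.54 ± 0.263, while TXNIP, at 2.92 ± 0.0611, came below ARRDC1 (4.89 ± 0.402) and MLXIP (3.36 ± 0.0759), with no overlap of libraries between these neighbours. With the longest transcript as the length, MLXIP moved ahead of TXNIP and ARRDC1 in vehicle, and the order of the octanoate means did not change.

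Summed per length, the 5 alpha-arrestins came to 23.9 and 23.4 on this scale in vehicle and 34.6 and 33.4 in octanoate. ARRDC3 made up 33.5% and 35.3% of this sum with vehicle and 51.7% and 53.4% with octanoate. The share of TXNIP was 20.6% and 17.0% in vehicle and 8.57% and 8.62% in octanoate. The log2 ratio of TXNIP to ARRDC3 in normalised counts, which does not depend on the scaling of a library, was -1.14 and -1.50 in vehicle and -3.04 and -3.08 in octanoate.

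**Figure D3:**
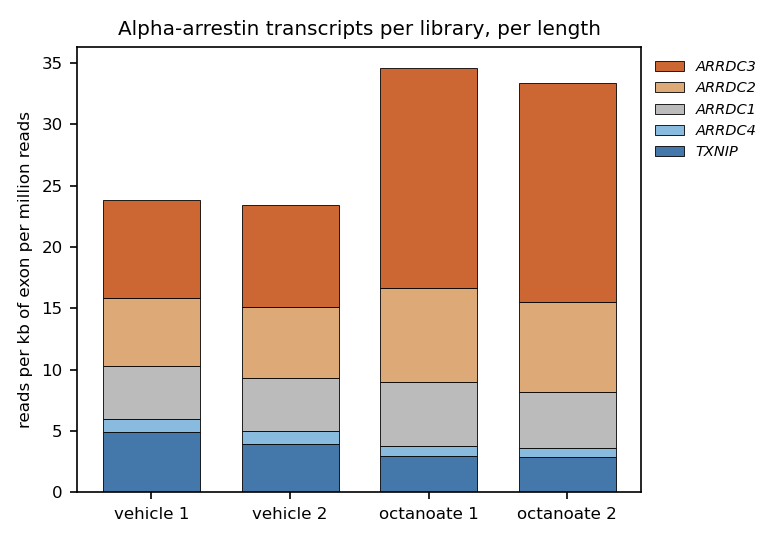
RPKM (reads scaled to exon length and library total, vertical axis, from 0) of the 5 alpha-arrestins, stacked for each of the 4 libraries. The sum is 23.9 and 23.4 in vehicle and 34.6 and 33.4 in octanoate, with ARRDC3 widening to over 50% of it and TXNIP narrowing to under 9%.

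Over the 4 libraries, the profiles most like that of TXNIP among 13481 other genes with a mean of at least 100 were CTNNBIP1, RP11-498C9.15, MARCKS, TMEM130 and FCGR2A, with Euclidean distances between centred log2 profiles of 0.0755 to 0.105. ARRDC4 ranked 158th by this measure (distance 0.232). For ARRDC4 the nearest were TWIST1, FIZ1, DMRT2, ALDOC and C20orf100 (0.0505 to 0.0599), and TXNIP ranked 636th. These distances are a description of 4 libraries, with no test.

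Genes known as targets of MondoA or ChREBP were more often called lower than higher. The list was written with earlier results of these data known, and the activity of either factor was not tested. Of 22 listed genes, 17 were tested, of which 10 were called lower, 1 higher and 6 were not called. The median log2 difference was -0.22, against 0.01 over all tested genes. The share called was 64.7%, against 29.9% of all tested genes. Among all tested genes it was 38.6% at means of 100 to 1000 and 37.9% at 1000 to 10000. Some list genes, such as FASN and SCD, have higher means still. TXNIP and ARRDC4 are among the 10 called lower. Some enzymes of fatty acid synthesis in the list were called lower and others were not. SCD, the stearoyl-CoA desaturase, had 61631 and 59638 normalised counts in vehicle and 45948 and 46386 in octanoate (log2 difference -0.39, SE 0.06, limma adjusted p 1.47e-05). FASN, the fatty acid synthase, had 62654 and 61104 against 48381 and 45858 (-0.39, SE 0.06, limma adjusted p 1.82e-05). ACLY, ELOVL6, TKT and PNPLA3 were called lower too, with log2 differences between -0.25 and -0.21. ACACA and ACACB, the acetyl-CoA carboxylase genes, were not called, with log2 differences of -0.10 and 0.09.

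The glycolytic regulator PFKFB3 had 10932 and 10166 normalised counts in vehicle and 8629 and 8556 in octanoate (log2 difference -0.29, SE 0.06, limma adjusted p 0.000345). HK2, the hexokinase that makes glucose 6-phosphate, had 10493 and 10011 against 9354 and 8747 (-0.18, SE 0.06, limma adjusted p 0.0209). KLF10, a zinc finger repressor known as a ChREBP target, went the other way, from 2642 and 2319 to 3746 and 3668 (0.58, SE 0.07, limma adjusted p 3.02e-07). Both octanoate libraries of KLF10 exceeded both vehicle libraries by more than 1000. The targets best known from liver, PKLR, THRSP, GCKR, G6PC and FGF21, had means under 10 and were not tested. FGF21 had 2 and 4 reads with vehicle and 19 and 13 with octanoate.

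The count for this list depended on the libraries and the fit. Without octanoate 2 the number called was 6 in place of 11, and without the intensity trend it was 0. The HK2 call was lost without vehicle 1 (limma adjusted p 0.152) and without octanoate 2 (limma adjusted p 0.252). HK2 and SCD also share long stretches with pseudogenes, 2755 bases at 96.0% identity with HK2P1 and 1520 bases at 95.5% with AC126365.1, so their counts are uncertain.

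**Figure D4:**
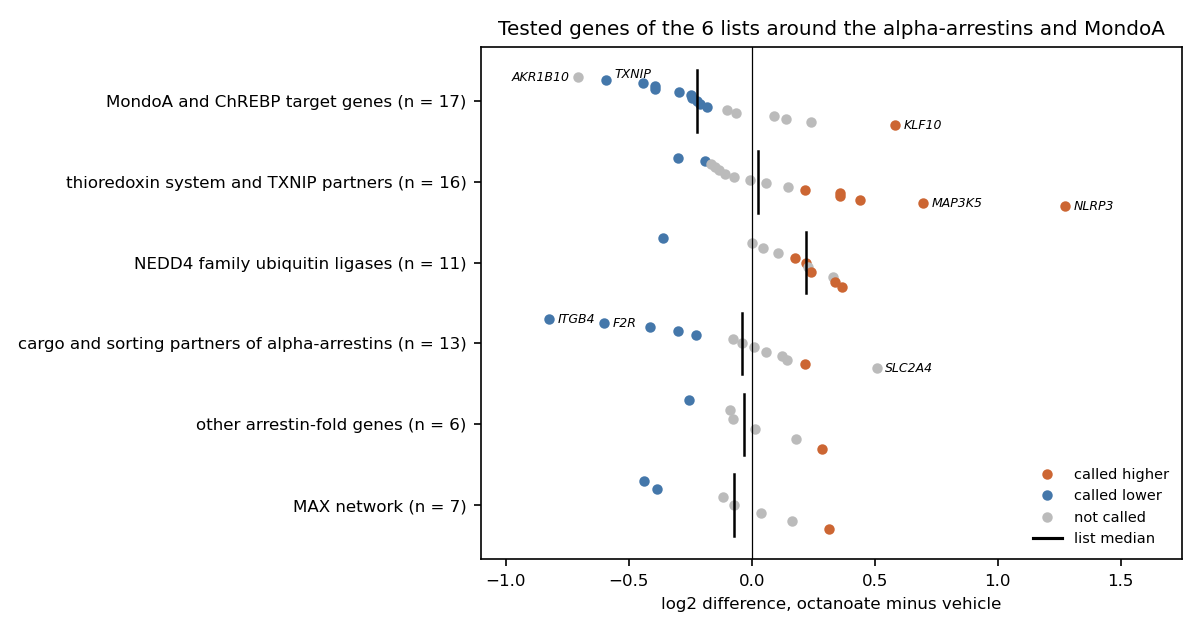
Log2 difference between octanoate and vehicle (horizontal axis) of each tested gene in 6 lists of targets and partners, orange where called higher, blue where called lower and grey where not called. Black bars are list medians, which run from -0.22 for the MondoA and ChREBP targets to 0.22 for the NEDD4 family ligases.

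Of 16 tested genes of the thioredoxin system and other TXNIP partners, 6 were called higher, 2 lower and 8 were not called, among them the thioredoxin reductase genes TXNRD1, TXNRD2 and TXNRD3. The median log2 difference was 0.03. The share called was 29.9% over all tested genes and 37.9% among those with means of 1000 to 10000. TXN, the cytosolic thioredoxin that TXNIP binds, had 31143 and 29911 normalised counts in vehicle and 35514 and 32193 in octanoate, a log2 difference of 0.15 that did not pass (SE 0.06, limma adjusted p 0.0703). The octanoate libraries weighed on it unequally: it was 0.08 without octanoate 1 (limma adjusted p 0.568) and 0.22 without octanoate 2 (limma adjusted p 0.0482). TXN also passed with a replicate block (limma adjusted p 0.00192), with TMM factors (limma adjusted p 0.0334), with equal column totals (limma adjusted p 0.0299), and with edgeR (adjusted p 0.0342) and DESeq2 (adjusted p 0.0360) on the recovered reads. The log2 ratio of TXNIP to TXN was -4.53 and -4.84 in vehicle and -5.46 and -5.39 in octanoate.

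NLRP3, the inflammasome sensor that can bind TXNIP, rose from 48.1 and 39.7 to 112 and 103 normalised counts (log2 difference 1.28, SE 0.20, limma adjusted p 3.49e-05). MAP3K5, the stress kinase ASK1 that thioredoxin holds inactive, rose from 1087 and 1051 to 1674 and 1796 (0.70, SE 0.07, limma adjusted p 5.62e-08). DDIT4, the mTORC1 inhibitor REDD1 that forms a complex with TXNIP, rose from 6876 and 6502 to 9462 and 8685 (0.44, SE 0.06, limma adjusted p 3.88e-06). DDIT4 shares 41.2% of its exon bases with DDIT4-AS1 on the opposite strand. AMPK phosphorylates TXNIP and marks it for breakdown, and of its subunit genes PRKAG2 rose by 0.36 (SE 0.07, limma adjusted p 0.000232), PRKAB2 by 0.36 and PRKAA2 by 0.21 on the log2 scale. The other AMPK subunit genes of the list were not called, with log2 differences of -0.07 for PRKAA1, -0.11 for PRKAB1 and -0.13 for PRKAG1. The genes called lower in this list were TXN2, the mitochondrial thioredoxin, and the cell cycle inhibitor gene CDKN1B, with log2 differences of -0.19 and -0.30. Without the intensity trend 2 genes of the list were called, NLRP3 and MAP3K5.

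Of the NEDD4 family ligases and their adaptors, more were called higher than lower. All 11 were tested, of which 5 were called higher, 1 lower and 5 were not called, with a median log2 difference of 0.22. The share called was 54.5%, against 29.9% of all tested genes and 37.9% of those with means of 1000 to 10000. SMURF2 rose from 6273 and 6158 to 8182 and 7873 normalised counts (log2 difference 0.37, SE 0.06, limma adjusted p 2.07e-05). NEDD4, the founding member, rose from 6286 and 6547 to 8164 and 8085 (0.34, SE 0.06, limma adjusted p 5.50e-05), and WWP1 from 3534 and 3546 to 4133 and 4240 (0.24, SE 0.06, limma adjusted p 0.00300). WWP2 fell from 7771 and 7474 to 5979 and 5883 (-0.36, SE 0.06, limma adjusted p 2.75e-05).

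ITCH, the ligase best known for marking TXNIP, had 9980 and 10378 normalised counts in vehicle and 10722 and 11207 in octanoate. Its log2 difference of 0.11 did not pass (SE 0.06, limma adjusted p 0.164). It passed with the replicate number as a block (limma adjusted p 0.0242). It also passed with trends in GC content and length taken out, a fit that covers too few genes to serve as a check. NEDD4L rose by 0.22 on the log2 scale (SE 0.06, limma adjusted p 0.00478), a call that was lost without vehicle 2 (limma adjusted p 0.0723). WWP1 shares 2769 bases at 96.0% identity with the pseudogene WWP1P1. No ligase was called without the intensity trend.

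Genes of membrane proteins that alpha-arrestins sort, and the ESCRT genes that act with them, were called in both directions. The counts are of RNA, and the sorting or breakdown of the proteins was not measured. Of 13 tested genes 1 was called higher and 5 lower, with a median log2 difference of -0.04. The share called was 46.2%, against 29.9% of all tested genes and 37.9% of those with means of 1000 to 10000. ITGB4, the integrin beta4 gene whose product ARRDC3 targets, fell from 2594 and 2311 to 1385 and 1380 normalised counts (log2 difference -0.82, SE 0.07, limma adjusted p 2.29e-09). F2R, which encodes the thrombin receptor PAR1 that ARRDC3 helps to sort, fell from 9060 and 8953 to 5849 and 6041 (-0.60, SE 0.06, limma adjusted p 1.25e-08). NOTCH1, a receptor whose trafficking alpha-arrestins are known to alter, was called lower as well (log2 difference -0.30, limma adjusted p 0.000481), except without the intensity trend (limma adjusted p 0.0975). VPS4B, an ESCRT ATPase gene, had a log2 difference of -0.23 (limma adjusted p 0.00436). The gene called higher was INSR, the insulin receptor (log2 difference 0.21). ITGB4 and F2R were called under all 16 alternatives, counting the fit that covers too few genes to serve as a check. F2R shares a stretch of 152 bases with other genes, which leaves part of its count uncertain.

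SLC2A1, the GLUT1 gene, had 15895 and 14703 normalised counts in vehicle and 11818 and 11125 in octanoate (log2 difference -0.41, SE 0.06, limma adjusted p 6.89e-06). Both octanoate libraries were below both vehicle libraries by more than the spread within either group. Its call was lost without the intensity trend (limma adjusted p 0.0682). The other glucose transporter genes of the list were not called: SLC2A3 had a log2 difference of 0.14 (limma adjusted p 0.0928) and SLC2A4, with under 20 normalised counts in each library, one of 0.51 (limma adjusted p 0.464). TSG101, the partner of ARRDC1, differed by 0.06 (limma adjusted p 0.495).

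The arrestin fold outside these members gave 1 call in each direction among 6 tested genes (33.3% called, against 29.9% of all tested genes). ARRB2, beta-arrestin 2, rose from 2481 and 2465 to 3067 and 2969 normalised counts (log2 difference 0.29, SE 0.06, limma adjusted p 0.000971). VPS26A, a retromer subunit, fell from 5626 and 5636 to 4597 and 4854 (-0.25, SE 0.06, limma adjusted p 0.00181). The remaining alpha-arrestin, ARRDC5, had 6.87 and 8.72 normalised counts in vehicle and 1.93 and 4.33 in octanoate, under the minimum for testing.

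Of the MAX network, whose dimers bind E-boxes that MondoA and MLX can also bind, 3 of 7 tested genes were called (42.9%, against 29.9% of all tested genes and 37.9% of those with means of 1000 to 10000). The repressor genes MXD3 and MXD4, whose products pair with MAX (MXD4 also with MLX), fell from 1163 and 1093 to 848 and 814 normalised counts (log2 difference -0.44, limma adjusted p 0.000113) and from 2285 and 2113 to 1769 and 1599 (-0.39, limma adjusted p 0.000178). MXI1, of the same family, rose from 2553 and 2383 to 3122 and 3013 (0.31, limma adjusted p 0.000522). MAX itself had 2413 and 2451 against 2307 and 2178, a log2 difference of -0.12 that did not pass (limma adjusted p 0.181). MXD3 shares 926 exon bases with RAB24 on the same strand and 1158 with PRELID1 on the other, so its count is uncertain. Without the intensity trend none of this list, nor of the other arrestin-fold genes, was called.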

How the data were processed

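Per the submitters' processing notes, reads were handled with bcl2fastq 2.17, Trim Galore, STAR 2.4, Picard, HTSeq 0.9.1 and DESeq2 on build hg38. The annotation and strand setting are not given in the sources used here. The deposited signal is a count per gene divided by 1 size factor per library (100% of positive values were whole multiples of the library's smallest value, within 0.001), so whole reads were recovered. The authors' deposited comparison gives log2 fold changes, a test score, p-values and adjusted p-values, used here only where named.

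Octanoate and vehicle were compared with limma 3.58.1 (R 4.3.3, intensity trend) on log2(normalised count + 1), which understates changes of low genes, over the 20250 genes with a mean of at least 10. P-values are two-sided and were adjusted over these genes by Benjamini-Hochberg. Alternatives were pseudocounts, filters, scalings, the prior without a trend, a replicate block, leaving out each library, edgeR 4.0.16, DESeq2 1.42.0, and a fit with trends in GC content and length taken out. That fit covered 77.1% of tested genes, under the 80% required, and is void for the whole table. Restricting to genes found in GENCODE 29 was added after seeing the data. Shared sequence was searched with blastn 2.17.0 (at least 95% identity over 100 bases).

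The members and lists were chosen with earlier results of these data known. Named genes were all members, up to 4 called genes of the smallest p per list, TXN, HK2, ITCH, NEDD4L, SLC2A1 and MAX, and the 5 nearest profiles of TXNIP and of ARRDC4. List genes given by their log2 difference alone were named after their values were seen. G6PC1 and VPS26C were found under the older symbols G6PC and DSCR3. Protein sequences were not used here, and 1 gene considered for the cargo list is not reported here.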

Additional observations from a re-analysis of the deposited data

How the results depend on the processing

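The variance model mattered most. Without the intensity trend 1625 genes were called, against 6048 as reported, with 1 of the 8 genes higher and 0 lower, and the lists gave 2 calls each for cargo and sorting partners and TXNIP partners and 0 for the MondoA and ChREBP targets, the NEDD4 family ligases, the other arrestin-fold genes and the MAX network. With no filter on low counts 2595 genes were called, 0 of the 8 genes lower, and 5 genes each of the MondoA and ChREBP targets and the TXNIP partners. The prior had 1.57 and 3.45 degrees of freedom in these fits, against 21.2 as reported. With trends in GC content and length taken out, a fit that covers too few genes to serve as a check, 13 TXNIP partners were called. Of the 34 members and list genes named by rule (nearest profiles not included), 28 were called, and 33 stayed on their side of the threshold with TMM factors, equal column totals, edgeR or DESeq2, the exception each time being TXN. Leaving out each library in turn gave 1 to 3 of the 8 genes lower, 6 to 10 called MondoA and ChREBP targets, and a log2 difference of MLX from -0.083 to 0.019, the one sign that turned.

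What the replicate numbers stand for is not in the labels. Deviations of same-numbered libraries correlated across genes at 0.126 (20250 genes), or 0.270 over the 13482 with a mean of at least 100, which with only 2 pairs does not establish pairing. A replicate block on that number gave 8376 called genes, all 28 named calls held, and 4 named genes gained one: ARRDC1, TXN, ITCH and MAX. The prior of this fit had 64.6 degrees of freedom, against 21.2 as reported, so its variances were borrowed even more from other genes. A gene with few reads, such as MLXIPL, had a standard error several times that of the abundant members.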
